A study of Mus musculus with 2 samples.

Results

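The 974 transcripts described here are spliced models of annotated genes that carry at least 1 splice site absent from the annotation of their gene. Splicing joins exons at a donor site, where the intron begins, and at an acceptor site, where it ends. Most introns start with GT and end with AG, so a second GT or AG a few bases away can be used in place of the annotated site, and a shift that is not a multiple of 3 changes the reading frame of a coding exon. Heart muscle is known for isoforms of sarcomere, calcium-handling and mitochondrial genes that differ by small exons.

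The reads came from long-read RNA sequencing, which reads each cDNA from end to end, of heart tissue from male B6CASTF1/J mice (the hybrid of C57BL/6J and CAST/EiJ) aged 18 to 20 months. The series has 1 group of 2 libraries, each from 2 µg of RNA, which are labelled as separate biological replicates and carry the same donor identifier, so the spread between them may be technical. No treatment or second group exists. The libraries had 699529 (replicate 1) and 1019974 (replicate 2) reads in all, and 688861 and 1003999 without the spike-ins. All 8 cardiomyocyte markers and all 4 atrial markers had reads, and the 5 skeletal muscle markers had none. Reads were also found for all 3 endothelial, 4 fibroblast and 3 macrophage markers and for 3 of 4 erythroid markers. The files do not separate the parental alleles, and all reference bases below are those of the mm10 assembly, which represents C57BL/6J.

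Members were chosen by the class the authors gave each model, NNC (a model with a new splice site), in a gene marked as known. The same model in both libraries was recognised by its chromosome, strand and chain of introns, and it had to reach 5 reads in both libraries together. The rule kept 974 of 21924 intron chains of that class, out of 79182 spliced chains of annotated genes. They lay in 695 genes, and 943 of them in protein-coding genes. The read counts chose the members, so their levels are a description. Just inside the limit lay 219 models with 5 reads, of which 168 were found in both libraries, and just outside lay 379 models with 4 reads, of which 277 were.

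The first set of sequences shows acceptor sites, because new acceptors lay most often 3 nt (nucleotides) or 2 nt downstream of an annotated one. Capitals mark the last 2 intron bases before the annotated and before the new site. Where only 1 pair is in capitals it is the new site, since the bases before the annotated acceptor lie in an intron and could not be read. Sequences run 5′ to 3′ and are from mm10.
Myh6, shift of 2 nt, chr14:54965464-54965483, minus strand: cccataAGAGtttgagtgac
Slc25a3, shift of 3 nt, chr10:91123694-91123714, minus strand: ccccgcAGgAGgatgttctcg
Slc25a13, shift of 3 nt, chr6:6110012-6110024, minus strand: cAGaaggcctcgg
Myl3, shift of 4 nt, chr9:110769577-110769598, plus strand: tgcttcAGgaAGcccagggcag
Atp5j, shift of 5 nt, chr16:84831493-84831515, minus strand: ttctctAGtacAGagactcagcc
Sdhb, shift of 6 nt, chr4:140966495-140966510, plus strand: tttcAGgcctgtcgag
Qk, shift of 24 nt, chr17:10216433-10216459, minus strand: cagcccttgccttttctcttgcAGcaa
In each of these the new acceptor follows an AG inside the annotated exon.

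The second set shows donor sites, where the commonest shift was 4 nt downstream. Capitals mark the first 2 intron bases after the annotated and after the new site.
Idh3g, shift of 4 nt, chrX:73782663-73782684, minus strand: catttcctcaGTaaGTacctgc
Tnni3, shift of 4 nt, chr7:4522293-4522314, minus strand: tggctgatgaGTatGTgaatct
Pitpna, shift of 4 nt, chr11:75603471-75603489, plus strand: tgcagaaccgGTgaGTgca
Slc25a3, shift of 4 nt, chr10:91123904-91123925, minus strand: gccatcttagGCaaGTgagcgc
Dctn2, shift of 10 nt, chr10:127267473-127267500, plus strand: gtttgatgcgGTaagactgtGTgctacc
In Idh3g, Tnni3 and Pitpna both the annotated and the new intron begin with GT. In Slc25a3 the annotated intron begins with GC and the new intron with GT.

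The third set shows what became clear when the new introns were laid over the annotation: the new intron of many leading members ran across a short annotated exon that the model lacks. Each pair gives the spliced sequence at that place. The annotated form has the short exon in capitals, and the new model has in capitals the intron bases that its shifted site adds instead. The coordinates are those of the short exon.
Idh3g annotated, chrX:73782298-73782309, minus strand: cctcaCAACAAACAATTcctcc
Idh3g new model: cctcaGTAAcctcc
Tnni3 annotated, chr7:4522070-4522082, minus strand: gatgaGAGCAGCGATGCGgctgg
Tnni3 new model, shift of 4 nt: gatgaGTATgctgg
Tnni3 new model, shift of 14 nt: gatgaGTATGTGAATCTTCgctgg
Mrpl33 annotated, chr5:31614603-31614621, plus strand: ctcttTTGCCAAGAGCAAGTCAAAaacta
Mrpl33 new model: ctcttGTAAGTCGaacta
Hnrnpk annotated, chr13:58393853-58393868, minus strand: cacagGGTGGTTCTGGATATGactat
Hnrnpk new model: cacagGTTGAGTATCAATAATactat
Rps24 annotated, chr14:24495430-24495449, plus strand: agcagTGAGTGGAGATTGGATACAGccaaa
Rps24 new model: agcagGTACTGCCATTGGGCACGccaaa
Pitpna annotated, chr11:75608107-75608114, plus strand: aaccgTTATTACAaatga
Pitpna new model: aaccgGTGAaatga
Lmf1 annotated, chr17:25588676-25588686, plus strand: atctgGTATTCTTTTGgatgg
Lmf1 new model: atctgGTAAgatgg
Rwdd4a annotated, chr8:47547972-47547974, plus strand: tgaagCATttaag
Rwdd4a new model: tgaagCAGttaag
In Hnrnpk and in Rwdd4a the added bases are as many as the exon they stand in for, with a net change of 0 nt. In Idh3g the new model is shorter by 8 nt and in Tnni3 by 9 nt with the shift of 4 nt.

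The new models took a small part of the reads. They held 8851 reads in replicate 1 and 11845 in replicate 2, which is 1.28% and 1.18% of the mouse reads. The median model had 9 reads in both libraries together. Of the 974 models, 938 (96.3%) had reads in both libraries, and the other 36 in 1 library. By the same read limit, which favours models found in both, the share found in both was 96.9% for NIC models and 98.9% for known models. A count of 0 reads allows up to 4.36 reads per 1e6 mouse reads in replicate 1 and 2.99 in replicate 2. The class label was less stable than the chain. The chain was called NNC in both libraries for 807 members, while 115 were called NIC (a new combination of annotated sites) in a library and 16 an incomplete match. Among 1569 models called NIC and chosen by the same read limit, 202 (12.9%) also held a site that is absent from the annotation of the gene.

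Genes read more deeply had a member more often. Members lay in 1.15% of the 3988 genes with 5 to 19 reads, in 4.88% of those with 20 to 99, in 12.6% of those with at least 100 but under 500 and in 42.1% of the 456 genes with 500 or more. Of the 6794 genes with at least 20 reads, 649 (9.55%) had a member. The share was 20 of 38 for sarcomere and Z-disc genes, 49 of 95 for the respiratory chain and ATP synthase, 13 of 24 each for the tricarboxylic acid cycle and for fatty acid oxidation, and 8 of 15 for glycolysis. These lists also held deep genes, with a median of 992.5 reads per gene for the sarcomere and 2231 for the respiratory chain against 63 over all genes, and the part of depth in the difference was not tested. It was 7 of 22 for calcium handling, 8 of 63 for mitochondrial carriers, 9 of 118 for the cytosolic ribosome, 6 of 79 for the mitochondrial ribosome, 6 of 87 for splicing regulators, 9 of 87 for protein folding and secretion, and 4 of 73 for the proteasome and ubiquitin.

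Most members differed from the annotation at 1 place. There was 1 new site in 776 members, 2 in 166 and 3 or more in 32. The members held 1167 distinct new site positions, 680 donors and 487 acceptors, and 58 positions occurred in more than 1 member. The plot of kinds orders them. Lengthening of an exon at its donor led with 273 positions, followed by shortening at the acceptor with 240. Exons that overlap no annotated exon of the gene were internal in 180 positions, first exons in 142 and last exons in 32. Both ends of a new intron lay inside 1 annotated exon in 73 positions.

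**Figure D1:**
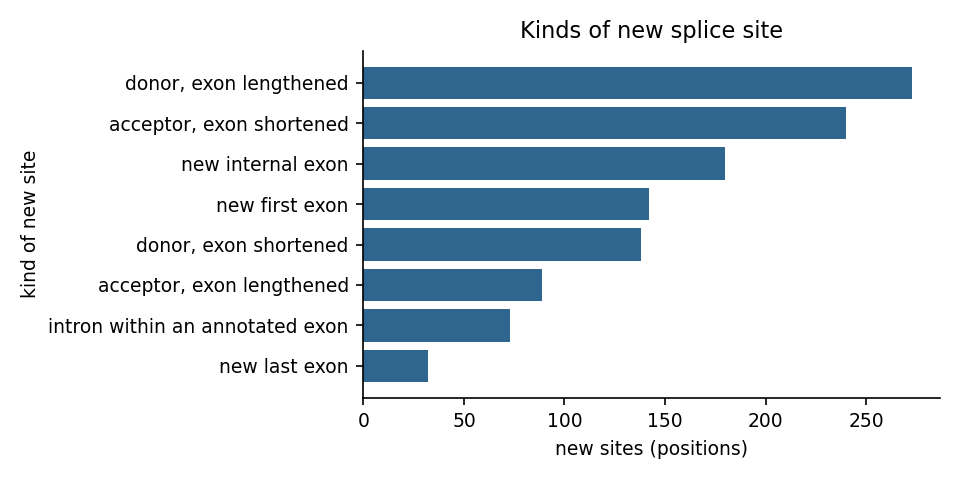
Number of new splice site positions of each kind over the 974 members (bars, horizontal axis in positions). Lengthening at the donor (273) and shortening at the acceptor (240) are the commonest kinds, and new last exons (32) the rarest.

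New sites clustered close to annotated ones. The shift is the distance to the nearest annotated site of the same kind in the gene, positive downstream in the direction of transcription. It was at most 10 nt for 372 of 1167 positions (31.9%, 95% Clopper-Pearson interval 29.2 to 34.6), at most 30 nt for 486 and over 1000 nt for 295. Intervals here and below cover counting error only. The plot of short shifts shows 2 different patterns. New donors stood 4 nt downstream at 99 positions in 89 genes, 14.6% of all new donors, and 4 nt upstream at 13. New acceptors stood 3 nt downstream at 61 positions, 2 nt at 40, 4 nt at 27, and 3 nt upstream at 18. A shift of at most 30 nt was a multiple of 3 at 51 of 251 donors (20.3%, 15.5 to 25.8) and at 110 of 235 acceptors (46.8%, 40.3 to 53.4). Not all of these 486 sites bear on a reading frame: 408 lay between start and stop codon, of which 144 (35.3%) had a multiple of 3. At 58 of the 486 the intron also spans an annotated exon of at most 30 nt, so the shift alone is not the net change in length.

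**Figure D2:**
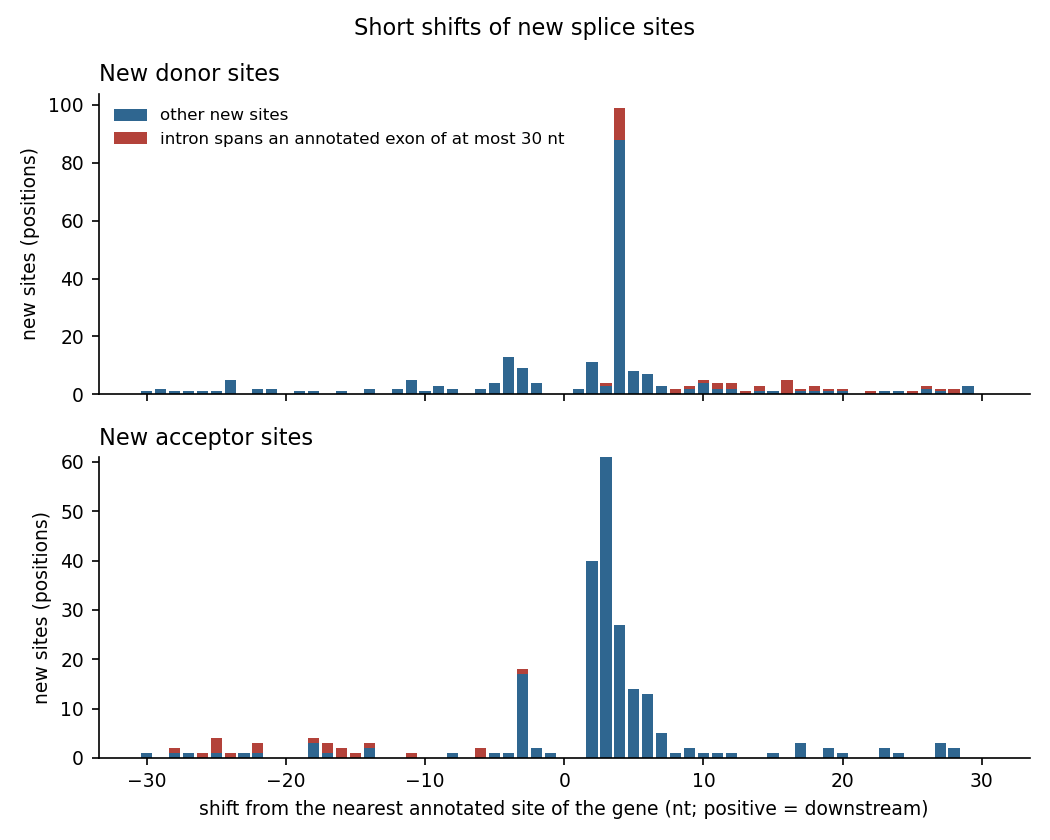
Number of new donor (top) and acceptor (bottom) positions at each shift from the nearest annotated site, in nucleotides, positive downstream. Red marks positions whose intron spans an annotated exon of at most 30 nt; donors peak at 4 nt (99 positions, 11 of them red) and acceptors at 3 nt (61).

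A GT or AG at these distances was far commoner than a new site there. Among 10312 annotated donors with at least 20 reads and readable bases downstream, 4138 (40.1%) had a GT at the place of a shift of 4 nt, and 17 of these 4138 carried a new site of a member. Among 50704 annotated acceptors, 2507 (4.94%) had an AG at the place of a shift of 3 nt. Of these, 240 were annotated as acceptors already and 53 (2.11%) carried a new site of a member. The same share was 1.56% of 2558 for a shift of 2 nt and 0.791% of 2909 for a shift of 4 nt.

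The bases next to new sites were mostly those of ordinary introns, where they could be read. No genome sequence was used, so bases come from annotated transcripts, and 563 of 1167 positions could be read. Of 253 readable donors, 223 (88.1%) had GT and 28 (11.1%, 7.48 to 15.6) had GC. Of 310 readable acceptors, 301 (97.1%) had AG. Both ends were readable for 197 new introns, of which 175 (88.8%) were GT-AG and 18 (9.14%) GC-AG. Annotated introns with reads, read in the same way, were GT-AG in 98.6% and GC-AG in 1.12% of 8836. The readable new introns lie in annotated transcript sequence and are not a random sample of the 1069 new introns. In Rwdd4a the new intron ends with AT instead of AG.

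Most of the closest sites took few of the reads at their junction. Usage is the share of reads that take the new site among reads that take either it or the nearest annotated site and join the same partner. It was measured for 324 positions with shifts of at most 10 nt and at least 10 such reads in each library. The median was 1.12% in replicate 1 and 1.25% in replicate 2, while 78 positions reached 10% and 37 passed 50% in both. At 15 of these 37 the annotated site had no read at that partner, and 12 of the 37 belong to an intron across a short annotated exon, where the annotated form is joined to another partner. In Got2 and Ptcd3 both ends of the intron moved, so neither end shares a partner with the annotated intron. Both ends of Got2 thus count as 100%, although the annotated intron had 97 and 117 reads against 50 and 59. Donors shifted by 4 nt had medians of 0.509% and 0.673% over 83 positions, of which 13 passed 50% in both libraries, 7 of them across a short exon. Acceptors shifted by 3 nt had medians of 5.88% and 6.56% over 52 positions.

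Very short annotated exons were almost absent from the deposited models, also in the genes of the leading members. For 103 annotated internal exons of coding transcripts of at most 15 nt, at least 20 reads either held the exon or had an intron of the gene across it. No read held the exon for 101 of them. The share of exons without a read was 53.1% (38.3 to 67.5) of 49 exons of 16 to 20 nt, 13.9% of 346 exons of 21 to 30 nt, 3.01% of 3860 exons of 31 to 60 nt and 0.817% of 17004 exons over 120 and up to 200 nt. Of the 1167 new positions, 65 (5.57%) in 49 genes belonged to an intron that spans such an exon of at most 30 nt, and in 41 of the 65 the exon had no read in either library. The part was 11 of 99 for donors shifted by 4 nt, 27 of 51 (52.9%) for donors shifted by 8 to 30 nt downstream and 18 of 31 (58.1%) for acceptors shifted by 6 to 30 nt upstream. Whether the RNA lacked these exons or the alignment of the reads passed over them was not tested.

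**Figure D3:**
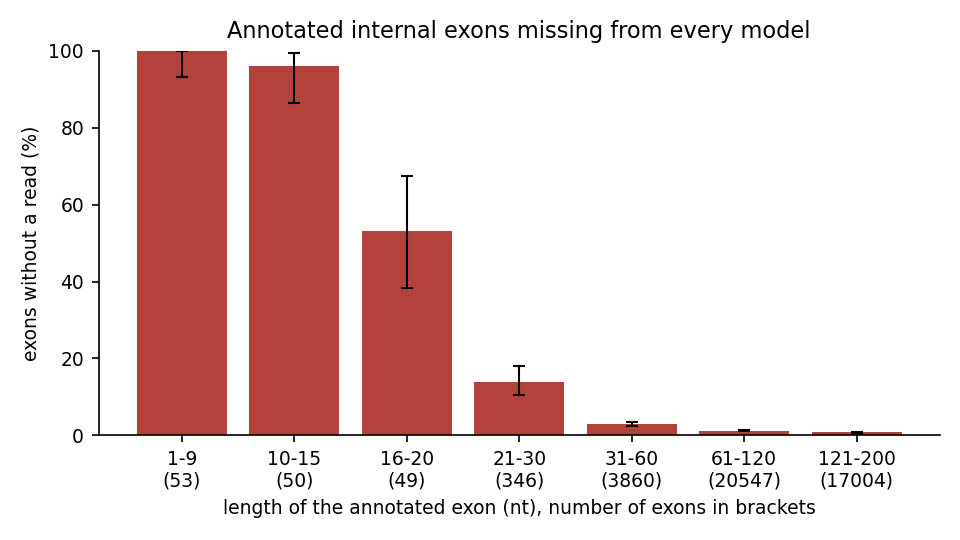
Share of annotated internal exons of coding transcripts that no read held, by exon length in nucleotides (bars, percent, with 95% Clopper-Pearson intervals; number of exons in brackets). The share falls from 100% of 53 exons of up to 9 nt to 0.817% of 17004 exons in the longest class.

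Among the members, those with such an intron had the larger median share of their genes. The share of a gene was measured for 820 members whose gene had at least 20 reads in each library. The 55 members whose new intron spans a short exon had medians of 5.64% in replicate 1 and 5.43% in replicate 2, and the other 765 had 1.84% in both. Gene depth was not matched between these groups. At least 50% of the gene in both libraries was reached by 28 members, and 14 of these 28 had such an intron.

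**Figure D4:**
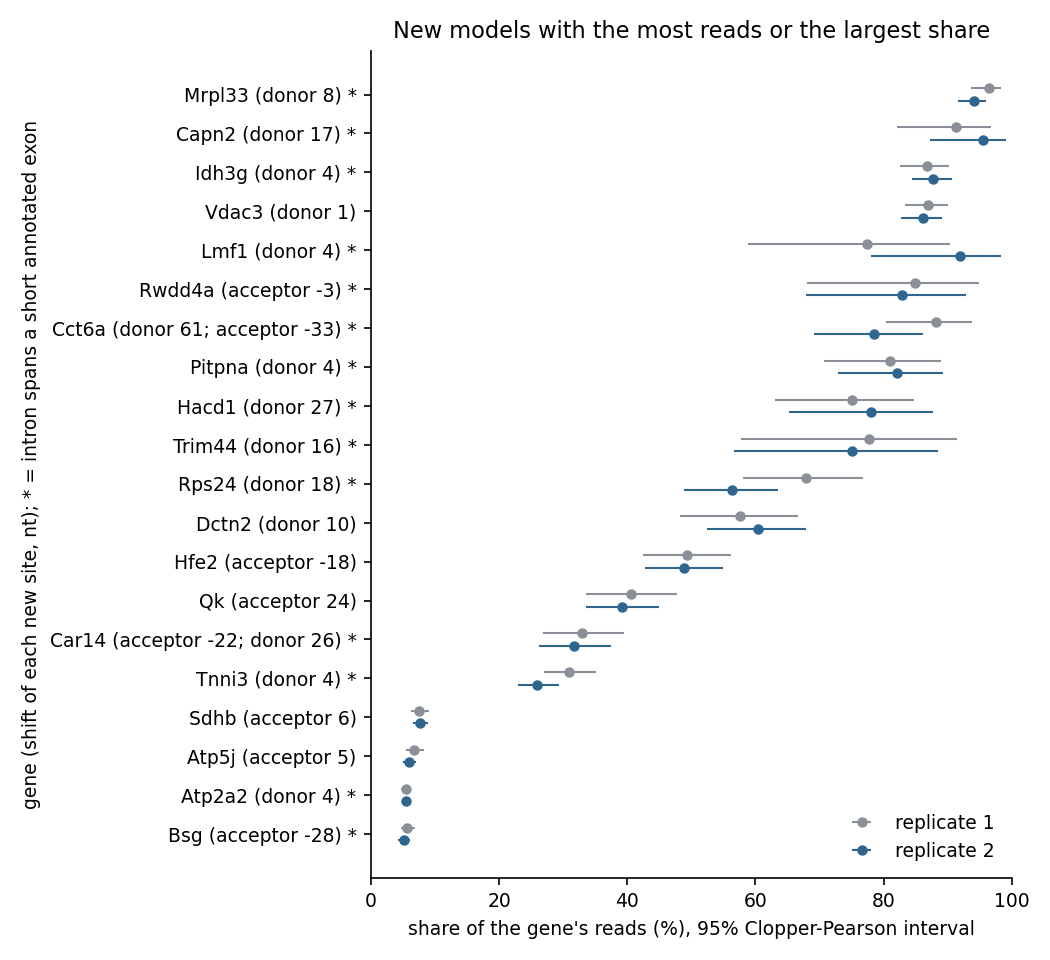
Share of the gene's reads (percent) held by 20 of the models with the most reads or the largest share, in replicate 1 (grey) and replicate 2 (blue) with 95% Clopper-Pearson intervals. Names give the shift of each new site, a star marks an intron across an annotated exon of at most 30 nt, and shares run from 96.5% in Mrpl33 to 5.07% in Bsg.

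Among sarcomere genes, Tnni3 encodes cardiac troponin I, the inhibitory subunit of the thin filament. Its leading new model held 158 of 511 reads in replicate 1 (30.9%) and 194 of 747 in replicate 2 (26.0%). The annotated 13-nt exon shown above was on 0 reads, while 232 and 295 reads had an intron across it. Of these, 159 and 196 used the donor shifted by 4 nt, 28 and 44 a donor shifted by 14 nt, 20 and 27 an acceptor shifted by 16 nt upstream, and 5 and 9 one shifted by 24 nt upstream. At this short exon 4 different new sites were thus recorded in separate new models. Whether the alignment passed over the exon was not tested. Translated from the annotated start, the leading model ends at the annotated stop codon with 208 residues against 211.

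Myh6, the alpha myosin heavy chain, and Myl3, the ventricular essential light chain, had new acceptors used rarely. The acceptor of Myh6 shifted by 2 nt before the start codon took 137 and 163 reads against 8747 and 11622 at the annotated site, 1.54% and 1.38%. The acceptor of Myl3 shifted by 4 nt after the stop codon took 47 and 76 reads against 4828 and 6738, 0.964% and 1.12%. Mybpc3 (cardiac myosin binding protein C) and Tnnt2 (cardiac troponin T), named after their values were seen, each had new introns across a short exon without reads, of 3 nt in Mybpc3 and 9 nt in Tnnt2. In Mybpc3, 13 and 13 of 76 and 83 reads across the exon used an acceptor shifted by -17 nt and 5 and 9 a donor shifted by 4 nt. In Tnnt2, 15 of 20 and 16 of 22 reads across the exon used a donor shifted by 3 nt. Nexn, which encodes the Z-disc protein nexilin, had a new first exon, whose donor took 129 reads against 131 at the nearest annotated donor in replicate 1 and 149 against 165 in replicate 2. The Nexn member itself held 31 of 580 and 26 of 957 reads of the gene, 5.34% and 2.72%, and was called an incomplete match in replicate 1.

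Among calcium-handling genes, Atp2a2 encodes SERCA2, the calcium pump of the sarcoplasmic reticulum. Its leading member held 221 of 4101 and 320 of 5890 reads, 5.39% (4.72 to 6.12) and 5.43% (4.87 to 6.04). The new intron spans an annotated 18-nt exon, which here was well covered: 3177 and 4566 reads held it, while 248 and 380 took the donor shifted by 4 nt and left it out. A second donor of Atp2a2, also shifted by 4 nt, was used by 57 and 106 reads against 3631 and 5202 at the annotated site, 1.55% and 2.00%. Tmem65, a protein of the intercalated disc, had a new internal exon of its leading member in 33 of 157 reads and 57 of 234. The shift of its acceptor from the nearest annotated one was -9913 nt.

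In the tricarboxylic acid cycle, Idh3g encodes the regulatory gamma subunit of isocitrate dehydrogenase. The new model held most reads of the gene, with 288 of 332 (86.7%, 82.6 to 90.2) and 395 of 450 (87.8%, 84.4 to 90.7). The annotated 12-nt exon was on 0 reads, and 299 of 310 and 415 of 424 reads across it used the donor shifted by 4 nt. As for the other exons of at most 15 nt, whether the alignment passed over it was not tested. Read from the annotated start, the model reaches a stop codon after 46 residues, more than 50 nt before its last junction, where the annotated protein has 393. The alpha subunit gene Idh3a had a donor 24 nt upstream, a multiple of 3, on 12 and 22 reads against 812 and 893.

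In the respiratory chain, Sdhb encodes the iron-sulfur subunit of succinate dehydrogenase. Its acceptor shifted by 6 nt took 111 reads against 1297 in replicate 1 and 163 against 1907 in replicate 2, 7.88% and 7.87%, and leaves 280 of 282 residues in frame. Atp5j, coupling factor 6 of ATP synthase, used an acceptor shifted by 5 nt before the start codon in 8.05% and 6.90% of reads at that junction, and the model keeps all 108 residues. Ndufab1, the acyl carrier subunit, had an acceptor 78 nt upstream in the 3′ untranslated part, in a member with 41 of 979 and 68 of 1571 reads of the gene. Vdac3, a channel of the outer mitochondrial membrane, had a new model with 354 of 407 (87.0%) and 412 of 478 (86.2%) reads. Its donor, at 22587549 on chromosome 8, stands 1 nt from an annotated donor without reads and 4 nt from the nearest annotated donor that had reads. Slc25a13, the aspartate-glutamate carrier, used the acceptor shifted by 3 nt in 57 reads against 22 and in 51 against 18, 72.2% and 73.9%, which removes 1 of 676 residues.

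In the use of fatty acids, Lpl encodes lipoprotein lipase, whose maturation needs the product of Lmf1. An Lpl member lost a stretch inside its last exon, an intron with CT and GC at its ends that was on 42 and 62 reads, and another used an acceptor shifted by 3 nt in 0.663% and 0.576% of reads. Lmf1 had few reads, and the new model held 24 of 31 (77.4%, 58.9 to 90.4) and 34 of 37 (91.9%, 78.1 to 98.3). Fabp3, the fatty acid binding protein of heart, had a new internal exon of 161 nt on 13 of 7274 and 14 of 13633 reads. In Eno3, the muscle enolase, a donor shifted by 4 nt took 3.38% and 4.58% of reads at that junction. Pfkm, the muscle phosphofructokinase, had an exon before the start codon lengthened by 49 nt in 10.3% and 8.36%.

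In genes of ribosomes and RNA-binding proteins the shares differed widely. Mrpl33, a protein of the large mitochondrial ribosomal subunit, had the largest share of the 820 members when the lower library is taken, 274 of 284 reads (96.5%, 93.6 to 98.3) and 457 of 486 (94.0%, 91.5 to 96.0). Its annotated 19-nt exon was on 4 reads in each library. Rps24, a protein of the small cytosolic subunit, had a new model with 70 of 103 (68.0%) and 103 of 183 (56.3%) reads, and its annotated 20-nt exon was on 0 reads. Hnrnpk, an RNA-binding protein, had 178 of 184 and 251 of 263 reads across its 16-nt exon at the donor shifted by 16 nt. That exon was on 0 reads, and whether the alignment passed over it was not tested. The leading model of Hnrnpk held 22.9% and 28.6% of the gene. With the added bases in place of the exon, it meets a stop codon after 368 residues against 464. Qk, the RNA-binding protein quaking that regulates splicing in muscle, used the acceptor shifted by 24 nt in 130 reads against 33 in replicate 1 and in 198 against 33 in replicate 2, 79.8% and 85.7%. The leading model held 40.5% and 39.1% of the gene. That shift keeps the frame, with 333 of 341 residues, and no short annotated exon lies in its intron.

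Other leading members also ran across short exons. Capn2, a calpain protease, had 63 of 69 and 63 of 66 reads on its new model, which lacks an annotated 12-nt exon. Pitpna, a phosphatidylinositol transfer protein, had 64 of 79 and 78 of 95, and lacks an 8-nt exon. Cct6a, annotated here as a gene without a coding transcript, had 90 of 102 and 77 of 98, and lacks a 13-nt exon. Rwdd4a (28 of 33 and 34 of 41), Trim44 (21 of 27 and 24 of 32) and Hacd1 (51 of 68 and 46 of 59), a dehydratase of very long fatty acid synthesis, had introns across exons of 3, 20 and 19 nt. Those 3 exons were on at most 1 read in a library. Car14, a membrane carbonic anhydrase, had 2 such introns, at exons of 21 nt with 1 and 1 reads and with 102 and 130 reads. Bsg encodes basigin, a chaperone of lactate transporters. Its member took 105 of 1861 and 122 of 2407 reads (5.64% and 5.07%), and its skipped 25-nt exon was on 1706 and 2211 reads.

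Of the 20 leading members plotted, those without a short exon in their intron were Vdac3, Dctn2, Hfe2, Qk, Sdhb and Atp5j. Dctn2, a dynactin subunit, used the donor shifted by 10 nt in 71 reads against 38 and in 103 against 50, 65.1% and 67.3%, and the model meets a stop codon after 38 of 402 residues. Hfe2 encodes hemojuvelin, a co-receptor in iron regulation. Its acceptor 18 nt upstream took 70.2% and 70.6% of reads at that junction, lies before the start codon and leaves all 420 residues.

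In all, 5 introns were moved as a whole, with the same shift of 4 nt at both ends, so that the length of the spliced transcript is kept. In Got2, the mitochondrial aspartate aminotransferase, 50 and 59 reads had the moved intron and 97 and 117 the annotated one. In Ptcd3, a mitochondrial ribosome protein, 54 and 78 reads had the moved intron and 0 the annotated one. The others were Mttp, Grb14 and Emc3. The bases at both ends could be read only in Emc3, where they differed between the forms. All 5 were named after their values were seen.

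Far sites gave new exons. There were 92 new internal exons with a median length of 85.5 nt (21 to 1482), and 47 had a length that is a multiple of 3. Read counts given here for new exons are those of the member, and other models can hold the same exon. Abcd3, a peroxisomal transporter, had one of 70 nt, in a member with 31 of 59 (52.5%) and 45 of 84 (53.6%) reads. Both ends of the exon were shifted by -1978 nt from the nearest annotated sites, which thus also lie 70 nt apart. The model reaches the annotated stop codon with 659 residues, the same number as the reference. Kcng2, a potassium channel subunit, had one before the start codon, in a member with 45 of 226 and 83 of 315 reads. Over all spliced models the acceptor of that exon was on 59 and 100 reads and its donor on 54 and 92. Sbk1, a kinase, had a new first exon, with a shift of -23987 nt from the nearest annotated donor, in a member with 55 of 83 (66.3%) and 81 of 118 (68.6%). Armc2 had a new first exon, in a member with 24 of 44 and 38 of 85 reads. G3bp2, a stress granule protein, had one with a shift of -54023 nt, in a member with 15 of 69 and 19 of 86. Among members with at least 20 reads the largest downstream shift was 71229 nt, to a new last exon in the Gm34302 locus, in a member with 10 of 411 and 15 of 995 reads.

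Introns inside annotated exons numbered 38, with lengths from 44 to 2093 nt and a median of 164.5. In 6 of them at least 8 bases are the same at both ends, so that the place of the intron is not fixed by the sequence. Acad12, an acyl-CoA dehydrogenase family member, had an intron of 134 nt in its last exon on 61 and 78 reads.

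The share of the gene was smaller in genes read more deeply, and a limit of 5 reads admits small shares only in deep genes. Summed over the members of a gene, the median was 50% in genes with 5 to 19 reads, 21.7% with 20 to 99, 5.37% with at least 100 but under 500, and 0.872% with 500 or more. Medians over the 820 members were 2.04% in both libraries, against 5.72% and 5.77% for NIC models and 57.5% and 54.4% for known models chosen by the same read limit, without matching for gene depth. At least 10% in both libraries was reached by 146 of 820 members, and 64 members were the spliced model with the most reads in their gene. Translation began at an annotated ATG that lies in the model. It was taken from the coding transcript with the most reads among those whose start the model holds. Of 574 members that could be translated, 385 ended at the stop codon annotated for that transcript, which need not be the most read one of the gene. Another 123 ended at another stop codon more than 50 nt before the last junction, the position that marks a message for nonsense-mediated decay, and 66 at another stop. Members with an intron across a short annotated exon were not set apart in these counts. The 123 include Idh3g, Capn2, Pitpna and Lmf1, which have such an intron, and Dctn2, which does not. Whether the alignment passed over those exons was not tested, so the stop codons are those of the deposited models. Another 243 members could not be translated because bases were not readable, and readability differed with the site: 22 of 99 donors shifted by 4 nt were readable against 61 of 61 acceptors shifted by 3 nt. The 574 are therefore not a sample of all members.

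The split of the reads between the libraries was not used by the rule and could be tested. Fisher's exact test (two-sided, Benjamini-Hochberg adjustment over 6971 spliced models of all classes) set the reads of a model against all other reads of its gene. Over all models 34 (0.488%) were called at an adjusted p of 0.05, and 1 of the 391 members tested. Dysf encodes the membrane repair protein dysferlin. The test (Fisher's exact) called its model with a new first exon, at 27 of 126 reads in replicate 1 (21.4%) and 14 of 226 in replicate 2 (6.19%), adjusted p = 0.0132. The use of that first exon over all models of Dysf was not tested. An unadjusted p below 0.05 was found for 15 members (3.84%) and for 6.35% of all models. The median difference between libraries was 1.12 percentage points over the tested members. The test compares these 2 libraries and treats reads as independent.

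**Figure D5:**
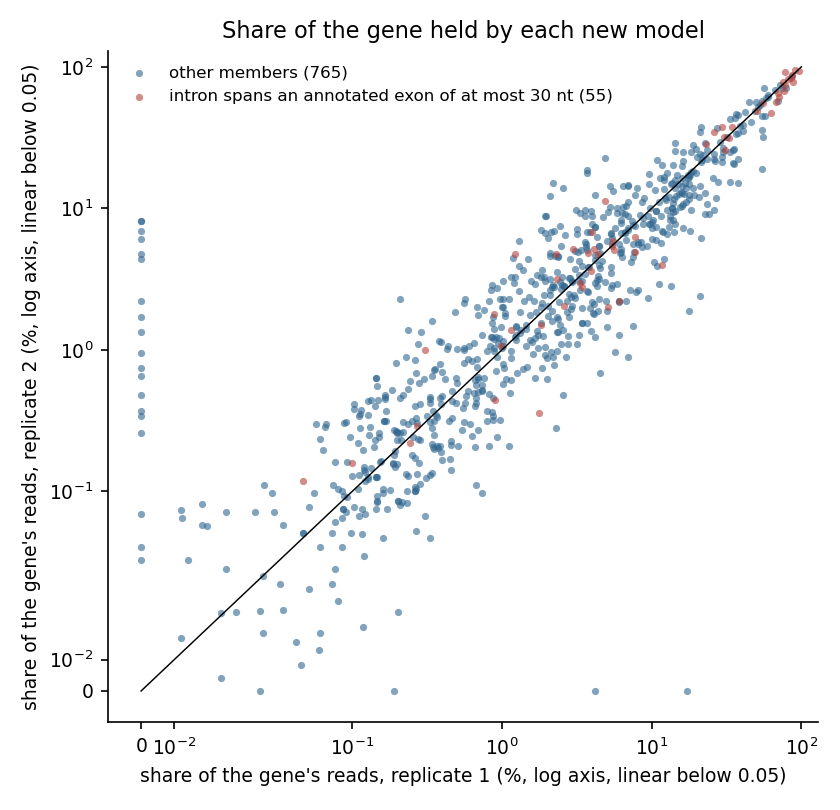
Share of the gene's reads in replicate 1 (horizontal) and replicate 2 (vertical) for 820 members whose gene had at least 20 reads in each library, in percent on log axes that are linear below 0.05. The line marks equal shares; members with an intron across a short annotated exon (55, red) are spread over the range and fill much of its upper end, and points on an axis at 0 had no read in that library.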

How the data were processed

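For each of the 2 libraries the authors deposited a read count for every transcript model (whole numbers, not normalized) and the models' exons. Per the deposited text descriptions, coordinates are mm10 and the annotation is GENCODE M21; TALON is named in the annotation's source column. The aligner and filters, and how short exons were aligned, were not found in the sources used.

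Models were matched by intron chain. Membership used reads called NNC, and shares used all reads of the same chain divided by all reads of its gene. Bases came from the GENCODE M21 transcripts, so introns were only partly readable. Shares carry 95% Clopper-Pearson intervals; libraries were compared by Fisher's exact test with at least 10 reads on the model in both libraries together and 20 of the gene in each, tested on simulated data. Named members were the 15 with the most reads and the 10 with the largest share in their lower library, those called, 3 per kind of site, up to 4 per gene list and the 3 smallest and largest shifts; not all are described, and some genes are not reported here. Members and lists were chosen with earlier results of these data known. Calculations used Python 3.11.15, pandas 2.3.3 and scipy 1.17.1.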

Additional observations from a re-analysis of the deposited data

How the results depend on the processing

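The number of members followed the read limit: 399 at 10 reads and 164 at 20, and between 390 and 547 from a single library. The median share of the gene of 2.04% rose with the limit, to 15.03% at 20 reads and between 3.85% and 5.48% with 1 library left out; it was 2.30% over reads of complete spliced models only and 1.84% without introns across a short annotated exon, an alternative chosen after seeing the data. In the share test 2 members were called, Dysf among them, with minimums of 20 and 50 reads, 0 without a minimum and 0 over complete spliced models. After thinning replicate 2 1 member was called and it was not Dysf, so the call of Dysf did not hold under every setting. The shares of sites within 10 nt and of GT-AG introns stayed within the interval of their main value under each alternative run. So did the share of multiples of 3 over donors and acceptors together, 161 of 486 shifts of at most 30 nt (33.1%, 29.0 to 37.5). The separate shares of donors and of acceptors were not run under any alternative. Reads of complete spliced models are a part of the gene's reads, so a member's share over them cannot be lower. The 22 leading shares were all higher, 3 of them by more than 1.5 times. Those 3, as means of the libraries, rose from 6.35% to 38.8% in Atp5j, from 13.8% to 47.6% in Dysf and from 28.4% to 45.4% in Tnni3. No paired analysis was possible because the series has only 1 group. Depth limits single members, since the median member had 9 reads. Leaving out positions whose annotated site had no reads, 309 positions of at most 10 nt had median usages of 0.957% and 1.04%, and 22 in place of 37 passed 50% in both libraries (8 in place of 13 for donors shifted by 4 nt), an alternative added after seeing the data.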
